A study of Mus musculus with 2 samples.

Results

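The Hox genes were followed here across the sorted cells of wound dermis in a mouse single-cell RNA-seq series. Members were every row of the gene list whose symbol is *Hoxa*, *Hoxb*, *Hoxc* or *Hoxd* followed by digits only, which left out antisense and other non-coding names. This gave 39 genes of 27998 rows. They lie in 4 genomic clusters on the GRCm38 build. The *Hoxa* cluster holds 11 genes on chromosome 6 (52155590 to 52260880), *Hoxb* 10 genes on chromosome 11 (96194316 to 96368256), *Hoxc* 9 genes on chromosome 15 (102921103 to 103036852) and *Hoxd* 9 genes on chromosome 2 (74668310 to 74765142).

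Hox genes encode homeodomain transcription factors that give cells along the body axis their position. Genes at the same place in the 4 clusters form paralog groups, numbered from the end of the cluster that is used in the anterior body to the end used in the posterior body, limbs and genital region. Adult dermal fibroblasts are known to keep the Hox pattern of the body site they come from, so the set of Hox genes a fibroblast transcribes records where in the skin it arose.

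The series compared SM22rtTA; tetO-Cre; R26-Tomato mice (control) with SM22rtTA; tetO-Cre; R26-SmoM2/Tomato mice (SM22-SmoM2), in which recombined cells also carry an always active Smoothened, the membrane protein that switches on the Hedgehog (Hh) response. Mice of both genotypes were 4 to 5 weeks old, and both received doxycycline at 20 g/kg from day 1 after wounding until 3 days after complete re-epithelialization. The SM22 promoter drives rtTA, so the labelled cells are those in which that promoter was active together with their descendants, and wounds of several mice were pooled for a library. Tomato+ cells of the dermis were sorted and run as 1 library per condition, so no difference between conditions has a replicate check, no test was made between them, and all intervals below are 95% intervals that cover counting error only.

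After filtering, 2856 control and 1792 SM22-SmoM2 cells remained, with a median of 8607.5 and 8837.5 unique molecular identifiers (UMIs) per cell. A UMI marks 1 captured 3′ end, so counts per 1000000 UMIs (CPM) do not grow with transcript length. Cells fell into fibroblasts (1098 control, 1099 SM22-SmoM2), endothelial cells (701, 270), Schwann cells (678, 294), muscle cells (272, 94), immune cells (82, 33) and a few keratinocytes (15, 1). The leading genes of the muscle cells were *Rgs5*, *Acta2* and *Des*, known from pericytes and smooth muscle, and 6 skeletal muscle markers summed to 2.14 and 0 CPM there. The summed level of 7 fibroblast markers was 56762 CPM in fibroblasts of the control and 33703 CPM in those of the SM22-SmoM2 library, and that of 5 Hh-response genes was 27.2 and 257 CPM. Both sexes were present. Of fibroblasts that could be sexed from *Xist* and Y-linked UMIs, male cells made up 74.5% in the control and 94.4% in the SM22-SmoM2 sample. Barcodes with UMIs of both kinds, which can hold more than 1 cell, numbered 143 and 45. The matrices carry no barcodes, so barcodes shared between the libraries were not counted.

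Hox genes gave 18904 of 47918077 UMIs, or 395 CPM. Of the 39 genes, 35 had at least 1 UMI and 27 had at least 50. Another 8 were counted between 1 and 39 times (*Hoxa4*, *Hoxa6*, *Hoxa11*, *Hoxa13*, *Hoxb1*, *Hoxc13*, *Hoxd3* and *Hoxd11*). *Hoxb13*, *Hoxc12*, *Hoxd12* and *Hoxd13* had none, which allows up to 0.0626 CPM over all cells. The undetected genes all belong to the posterior end of their clusters, which is used in the tail, digits and genital region. *Hoxc13*, known from the growing hair shaft, was counted 11 times in control and 1 time in SM22-SmoM2 cells of all kinds. These counts are not scaled to depth. All genes of paralog group 13 together had 3 UMIs in control fibroblasts, 1 in Schwann, 1 in muscle and 0 in endothelial and immune cells. They had 0 in these lineages of the SM22-SmoM2 library. The other *Hoxc13* UMIs thus lay in keratinocytes or in the few cells left out of the lineages. Some genes share exonic sequence on the same strand in the GENCODE annotation, and counts of *Hoxc5* and *Hoxc10*, and of *Hoxd3* and *Hoxd4*, are uncertain to that extent. Exons of *Hoxa2* and *Hoxa3* overlap one shared gene model, *Gm28308*, in the same way. Exons of 9 members overlap those of a gene on the opposite strand.

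Upstream sequences are shown for 3 members on which the results below turn, because each stands for a different use of its cluster: *Hoxb4* and *Hoxd10*, which were high in endothelial cells, and *Hoxa10*, which was low in SM22-SmoM2 fibroblasts. RefSeq promoter entries (GRCm38.p6) were matched for 22 of the 39 genes, with 24 start sites. The 250 bases before the start are printed 5′ to 3′ on the gene's strand, with capitals at CCAAT or its reverse complement and at TATAAA or its reverse complement. None of the windows printed here overlaps an annotated exon. Some of the other Hox windows, which enter the motif shares below, do, such as those of *Hoxa7* and *Hoxd9*.
Hoxb4 (chr11:96318017-96318266, plus strand): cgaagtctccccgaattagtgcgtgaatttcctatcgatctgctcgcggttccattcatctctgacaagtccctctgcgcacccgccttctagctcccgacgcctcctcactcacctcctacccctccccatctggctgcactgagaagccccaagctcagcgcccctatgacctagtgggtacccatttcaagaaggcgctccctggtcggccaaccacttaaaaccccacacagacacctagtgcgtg
Hoxd10 (chr2:74691641-74691890, plus strand): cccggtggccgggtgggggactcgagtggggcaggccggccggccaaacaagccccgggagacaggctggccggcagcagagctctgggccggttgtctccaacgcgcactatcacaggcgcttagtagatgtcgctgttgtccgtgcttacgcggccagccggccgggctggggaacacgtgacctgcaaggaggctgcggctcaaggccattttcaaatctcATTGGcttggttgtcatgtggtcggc
Hoxa10, upstream start (chr6:52240855-52241104, minus strand): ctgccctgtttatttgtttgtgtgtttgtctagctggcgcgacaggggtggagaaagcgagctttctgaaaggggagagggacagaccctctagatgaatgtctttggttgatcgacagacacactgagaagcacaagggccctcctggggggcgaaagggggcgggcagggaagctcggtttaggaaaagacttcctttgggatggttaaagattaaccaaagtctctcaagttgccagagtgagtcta
Hoxa10, downstream start (chr6:52234940-52235189, minus strand): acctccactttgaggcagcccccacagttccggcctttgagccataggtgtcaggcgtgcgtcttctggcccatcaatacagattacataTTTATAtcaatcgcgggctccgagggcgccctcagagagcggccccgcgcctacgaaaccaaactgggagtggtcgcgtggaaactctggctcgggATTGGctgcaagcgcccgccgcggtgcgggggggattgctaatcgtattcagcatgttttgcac

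The 4 windows differ in composition. The window of *Hoxb4* holds 14 CpG dinucleotides and no match to the motifs searched, that of *Hoxd10* holds 20 CpG and 1 CCAAT, and the *Hoxa10* starts hold 7 CpG with no match and 20 CpG with 1 TATAAA and 1 CCAAT. Over all 24 Hox windows, CCAAT was present on either strand in 14 (58.3%, against 33.8% of 32851 promoters), TATAAA in 4 (16.7% against 12.4%) and TGATTNAT, a sequence bound by Hox proteins together with TALE-class partners, in 2 (8.33% against 2.82%). The Gli-binding letters GACCACCCA were found in 0 of 24 and in 0.225% of all promoters. A match is a description of the letters in the window only.

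Hox level and Hox cluster both followed the lineage. In the control library, all Hox genes together reached 775 CPM (756 to 794) in endothelial cells, 669 (632 to 707) in muscle cells and 340 (331 to 350) in fibroblasts. They reached 67.4 (60.2 to 75.2) in Schwann cells and 104 (81.7 to 131) in immune cells. The order was the same in the SM22-SmoM2 library, at 702, 651, 296, 54.5 and 90.3 CPM. Endothelial and muscle cells differed beyond counting error in the control library and overlapped in the SM22-SmoM2 library, where the interval of muscle cells ran from 584 to 723.

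**Figure D1:**
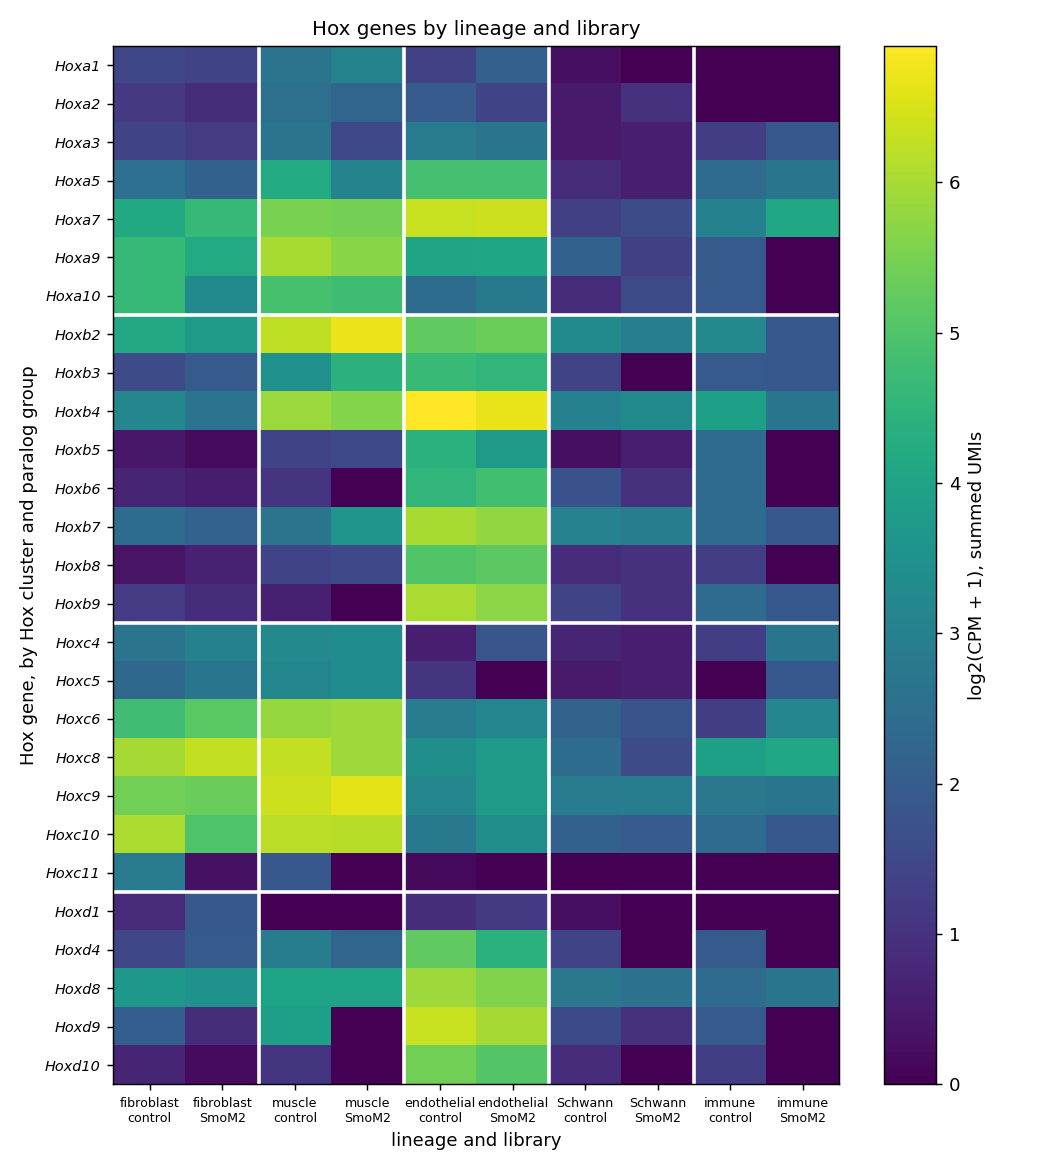
Levels of the 27 Hox genes with at least 50 UMIs (rows, ordered by Hox cluster and paralog group) in 5 lineages of both libraries (columns), as log2(CPM + 1) of summed UMIs. *Hoxc* genes are bright in fibroblasts and muscle cells, *Hoxb* and *Hoxd* genes in endothelial cells, and Schwann and immune cells are dark.

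Fibroblasts drew mostly on the *Hoxc* cluster. It gave 62.3% (60.9 to 63.6) of their Hox UMIs in the control and 65.6% (64.1 to 67.2) in the SM22-SmoM2 library, with *Hoxa* next at 22.3% and 19.7%. The highest single genes in control fibroblasts were *Hoxc10* at 65.6 CPM, *Hoxc8* at 61.6 and *Hoxc9* at 42.6, followed by *Hoxc6* at 26.4, *Hoxa10* at 23.7, *Hoxa9* at 23.6, *Hoxa7* at 17.2 and *Hoxb2* at 17.0. All of these but *Hoxb2*, a hindbrain and neck gene, are genes of the trunk and its posterior part. The intervals of *Hoxc10* (61.5 to 70.0) and *Hoxc8* (57.6 to 65.8) overlapped, as did those of *Hoxa10* and *Hoxa9*.

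Endothelial cells used other clusters. *Hoxb* gave 49.4% (48.1 to 50.6) and *Hoxd* 28.4% (27.3 to 29.5) of Hox UMIs in control cells, and *Hoxc* only 4.11% (3.64 to 4.63). *Hoxb4* was their highest gene, at 119 CPM in control and 102 in SM22-SmoM2 cells, against 8.09 and 5.20 in fibroblasts. *Hoxd9* stood at 79.7 and 61.4 CPM, *Hoxb9* at 64.0 and 51.3, and *Hoxd10* at 42.0 and 32.4, against 0.63 and 0.16 for *Hoxd10* in fibroblasts. *Hoxa7*, at 78.6 and 82.4 CPM, and *Hoxb7*, at 62.8 and 53.8 CPM, were also among the highest. Paralogs of the same number thus parted by cluster: at group 9, *Hoxc9* was at 8.06 CPM in control endothelial cells and 42.6 in fibroblasts, while *Hoxd9* was at 79.7 and 3.17.

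Of 24 members with at least 50 UMIs over both lineages of the control library, 15 were at least 2-fold higher in endothelial cells than in fibroblasts, against 22.1% of all genes measured that way, and 8 were at least 2-fold lower, against 15.9%. The remaining gene was *Hoxa9*, at a log2 ratio of -0.63 (-0.94 to -0.33). All 8 lower members were *Hoxc* genes or *Hoxa10*. The median log2 ratio was 2.25 over the 24 members and 0.23 over all genes compared. The lineages come from the same library, and fibroblast markers in endothelial cells were at 2.09% of their fibroblast level, while *Hoxc* was at 15.04% of its fibroblast level.

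**Figure D2:**
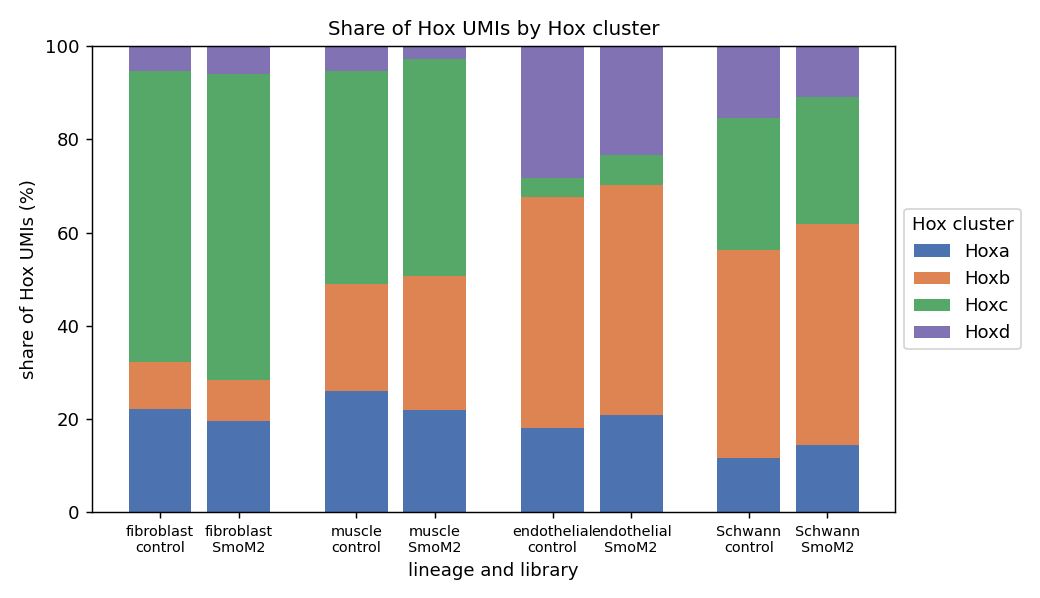
Share of Hox UMIs (%) that came from each of the 4 Hox clusters in 4 lineages of both libraries. *Hoxc* takes 62.3% and 65.6% of the bar in fibroblasts and 4.11% and 6.53% in endothelial cells, and the cluster with the largest share in each lineage is the same in both libraries.

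Muscle cells combined the fibroblast pattern with anterior *Hoxb* genes. *Hoxc9* was at 82.3 CPM in the control library, *Hoxc8* at 76.4, *Hoxb2* at 75.3, *Hoxc10* at 72.1, *Hoxa9* at 63.6, *Hoxb4* at 57.2 and *Hoxc6* at 55.03. *Hoxb5* to *Hoxb9*, which were high in endothelial cells, lay between 0.53 and 5.34 CPM in the same library. Of 16 members with enough UMIs, 7 were at least 2-fold higher in muscle cells than in fibroblasts, against 14.2% of all genes, and 1 was at least 2-fold lower, against 13.1%. The lower member was *Hoxc11*, on 5 UMIs in muscle cells and with an interval that held 0 (-1.18, -2.84 to 0.10). Endothelial markers in muscle cells were at 3.18% of their endothelial level and fibroblast markers at 9.88% of their fibroblast level, whereas *Hoxc* was at 144% of its fibroblast level and *Hoxb* at 39.95% of its endothelial level.

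In Schwann cells, which derive from the neural crest, the *Hoxc* and *Hoxa* UMIs stood where fibroblast markers did, relative to fibroblasts. *Hoxc* stood at 9.0% and *Hoxa* at 10.4% of the fibroblast level in the control library, and fibroblast markers at 10.4%. Whether these UMIs came from the Schwann cells or from RNA of other cells was not tested. *Hoxb* stood at 88.2% of its fibroblast level and at 7.86% of its endothelial level, and endothelial markers at 1.77% of theirs. *Hoxb2* at 8.68, *Hoxb7* at 7.41 and *Hoxb4* at 7.20 CPM were the highest members there. At equal depth, with each cell thinned to 2500 UMIs, a Hox UMI was found in 81.6% of endothelial, 76.8% of muscle and 54.9% of fibroblast cells of the control library, against 13.4% of Schwann cells and 10.98% of immune cells. Without thinning the shares were 98.9%, 94.1%, 92.2%, 26.1% and 24.4%, at median depths of 9413, 5516, 12464, 5959.5 and 7468 UMIs.

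The comparison of the libraries asks how the Hox pattern of wound dermis stood with Hh activation. In fibroblasts the sum of all Hox genes differed little, at 340 CPM in control and 296 (287 to 306) in SM22-SmoM2 cells. The log2 ratio of the sums was -0.20 (-0.26 to -0.14). The composition differed more. Paralog groups 9 to 13 gave 49.3% (47.9 to 50.7) of Hox UMIs in control and 33.5% (31.9 to 35.0) in SM22-SmoM2 fibroblasts, and groups 4 to 8 gave 43.4% and 59.1%. Groups 1 to 3 gave 7.28% and 7.43%.

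In the other lineages the share of the posterior groups was closer between the libraries. The share of groups 9 to 13 was 39.7% (37.0 to 42.5) and 37.6% (32.5 to 43.0) in control and SM22-SmoM2 muscle cells, 28.4% (27.3 to 29.6) and 27.0% (24.9 to 29.2) in endothelial cells, and 27.7% and 27.3% in Schwann cells, where few UMIs stand behind it (88 of 318 and 30 of 110). With both sexes together, the intervals of the 2 libraries overlapped in each of these lineages and lay apart in fibroblasts. By sex the shares moved more. In muscle cells they were 40.6% and 36.3% in male cells. In female muscle cells they were 29.8% (24.5 to 35.60) and 47.8% (35.65 to 60.2, on 33 of 69 UMIs), with intervals apart. In endothelial cells they were 29.1% and 24.7% in male and 28.6% and 30.2% in female cells.

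Within fibroblasts the difference was largest in the posterior paralog groups 10 and 11. The log2 ratio of SM22-SmoM2 over control was 0.35 (0.15 to 0.55) for group 6, 0.33 (0.11 to 0.56) for group 7 and 0.26 (0.13 to 0.38) for group 8. It was -0.27 (-0.41 to -0.13) for group 9, -1.16 (-1.31 to -1.01) for group 10 and -4.84 (-7.15 to -3.25) for group 11. Groups 3, 4 and 5, at 0.13, -0.0055 and -0.016, had intervals that held 0. Group 10 went from 90.0 to 40.3 CPM and group 11 from 6.89 to 0.24 CPM. Group 2 was at -0.46 (-0.75 to -0.17) and group 1 at 0.76 (0.13 to 1.40), so the ratios did not follow the group number as a whole.

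The posterior members at least 2-fold lower are given first. *Hoxa9*, of group 9, was also lower, by less than 2-fold and with an interval below 0. *Hoxc10*, of the paralog group that sets lumbar and hindlimb identity, was at 65.6 CPM (933 UMIs) in control and 31.4 CPM (392 UMIs) in SM22-SmoM2 fibroblasts, a log2 ratio of -1.06 (-1.24 to -0.89). *Hoxa10*, its paralog in the *Hoxa* cluster, was at 23.7 and 8.80 CPM, a log2 ratio of -1.43 (-1.75 to -1.11). *Hoxc11*, the next gene of the *Hoxc* cluster, was at 6.05 CPM (86 UMIs) and 0.24 CPM (3 UMIs), at -4.66 (-6.96 to -3.06). *Hoxd9* was at 3.17 and 0.88 CPM, at -1.85 (-2.95 to -0.87). These are genes of the lumbar, sacral and limb levels. *Hoxa11* was counted 11 times in control fibroblasts and 0 times in SM22-SmoM2 fibroblasts, where 0 counts allow up to 0.24 CPM.

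Per cell, at 2500 UMIs each, *Hoxc10* was found in 14.1% (12.1 to 16.3) of control and 6.92% (5.49 to 8.58) of SM22-SmoM2 fibroblasts, and *Hoxc8* in 13.6% (11.6 to 15.7) and 16.3% (14.2 to 18.6). In Schwann cells, where the *Hoxc* genes stood no higher than fibroblast markers did, *Hoxc10* was found in 0.737% and 0.680% and *Hoxc8* in 0.885% and 0% (0 to 1.25). Without thinning, *Hoxc10* was found in 44.1% and 23.1% of fibroblasts, at median depths of 12464 and 10954 UMIs. The share of fibroblasts with *Hoxc10* lay above that of Schwann cells in both libraries.

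*Hoxc10*, *Hoxa10*, *Hoxc11* and *Hoxd9* were the 4 members at least 2-fold lower among 18 with at least 50 UMIs in fibroblasts, against 5.01% of all 11539 genes compared. The minimum was on both libraries together, here and for all genes. *Hoxc11* (86 and 3 UMIs) thus passed it through the control library alone, and *Hoxd9* mostly through its control UMIs. In the other direction, 0 of the 18 were at least 2-fold higher, against 4.96%. The median log2 ratio was -0.24 over the 18 members and -0.07 over all genes compared. By interval, 3 members lay above 0 (*Hoxc8*, *Hoxc6* and *Hoxa7*), against 23% of all genes compared, and 7 below 0 (the 4 named and *Hoxb4*, *Hoxb2* and *Hoxa9*), against 32%, and 8 held 0. Counts by interval were thus near those of all genes. With each cell thinned to 2500 UMIs the ratio of *Hoxc10* was -0.94 and that of *Hoxb4* 0.08, and 1 member passed both the UMI minimum and 2-fold. *Hoxc9*, the neighbour of *Hoxc10*, was at 42.6 and 39.1 CPM, a log2 ratio of -0.12 (-0.30 to 0.05). *Hoxc8* was at 61.6 and 76.8 CPM, *Hoxc6* at 26.4 and 34.2 and *Hoxa7* at 17.2 and 23.8, with log2 ratios of 0.32 (0.18 to 0.45), 0.37 (0.17 to 0.57) and 0.46 (0.21 to 0.71). *Hoxd1*, an anterior gene under the 50-UMI minimum, was named after its values were seen: it had 11 UMIs (0.77 CPM) in control and 34 UMIs (2.72 CPM) in SM22-SmoM2 fibroblasts.

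The anterior members had no common direction in fibroblasts, and all but *Hoxb2* were below 10 CPM. *Hoxb2* was at 17.0 and 12.3 CPM, a log2 ratio of -0.46 (-0.76 to -0.16), and *Hoxb4* at 8.09 and 5.20 CPM, at -0.64 (-1.10 to -0.19). *Hoxc4* was at 5.35 and 7.20 CPM, *Hoxc5* at 4.01 and 5.44 CPM and *Hoxa5* at 4.78 and 3.44 CPM, and the intervals of these 3 ratios held 0. *Hoxb3* (28 and 36 UMIs) and *Hoxd4* (25 and 36 UMIs) also had intervals that held 0. *Hoxb2* in muscle cells was at 75.3 and 103 CPM, and its log2 ratio in fibroblasts minus that in muscle cells was -0.91 (-1.45 to -0.37). Fibroblasts minus endothelial cells gave -0.59 (-1.03 to -0.15) for *Hoxb2* and 1.56 (0.70 to 2.42) for *Hoxd4*. Against endothelial cells these members thus differed in opposite directions, and *Hoxd4* was itself lower in SM22-SmoM2 than in control endothelial cells.

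**Figure D3:**
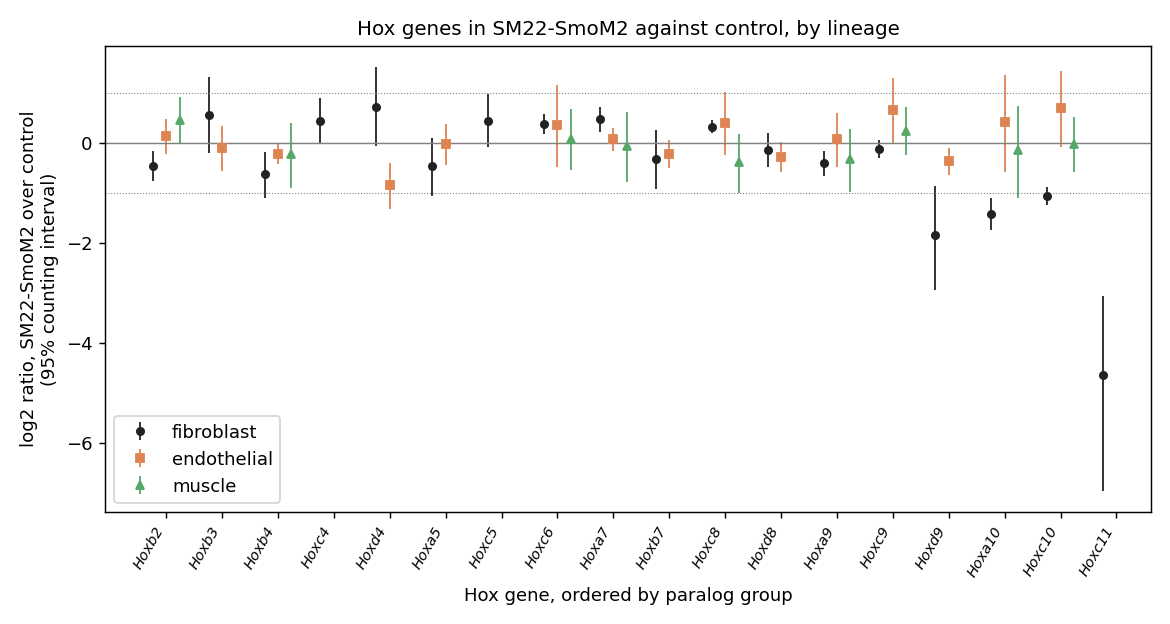
Log2 ratio of SM22-SmoM2 over control CPM for the 18 Hox genes with at least 50 UMIs in fibroblasts, ordered by paralog group, in fibroblasts (circles), endothelial cells (squares) and muscle cells (triangles), where at least 50 UMIs were counted in that lineage. Bars are 95% counting intervals and dotted lines mark 2-fold. *Hoxd9*, *Hoxa10*, *Hoxc10* and *Hoxc11* lie below the lower line in fibroblasts, and no endothelial or muscle point lies past either line.

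In muscle cells of the same libraries *Hoxc10* was at 72.1 and 71.1 CPM and *Hoxa10* at 28.9 and 26.2. In endothelial cells *Hoxc10* was at 5.98 and 9.67 CPM. The whole *Hoxc* cluster was also higher there in the SM22-SmoM2 library, at 31.9 and 45.8 CPM (log2 0.52, 0.19 to 0.85). Fibroblast markers in endothelial cells stood at 2.09% and 3.43% of their fibroblast level. Whether RNA of other cells added to the endothelial *Hoxc* counts was not tested. The difference between the log2 ratios, fibroblasts minus muscle cells, was -1.04 (-1.59 to -0.50) for *Hoxc10* and -1.29 (-2.19 to -0.39) for *Hoxa10*. Fibroblasts minus endothelial cells it was -1.76 (-2.49 to -1.02) and -1.85 (-2.79 to -0.91). These intervals, from the standard errors of the counts, do not hold 0. The mix of sexes differed between the lineages compared. Male cells made up 61.8% and 68.2% of sexed muscle cells in the control and SM22-SmoM2 libraries. They made up 66.9% and 62.9% of sexed endothelial cells, and 74.5% and 94.4% of sexed fibroblasts. These differences between lineages were not separated from that mix. Of 21 members with enough UMIs in endothelial cells, 0 were past 2-fold higher and 0 lower, against 0.704% and 1.51% of all genes. Of 9 members in muscle cells, 0 were past 2-fold in either direction, against 0.943% higher and 3.12% lower. *Hoxd9* was under the UMI minimum there, found in 19 of 272 control and 0 of 94 SM22-SmoM2 muscle cells. The *Hoxd* cluster in muscle cells was at 36.3 and 18.7 CPM (log2 -0.96, -2.08 to 0.0081). A lower *Hoxd9* is thus not shown to be particular to fibroblasts. In endothelial cells the largest difference was that of *Hoxd4*, at 36.4 and 20.2 CPM, a log2 ratio of -0.85 (-1.32 to -0.41), and the *Hoxd* cluster as a whole was at 220 and 164 CPM.

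The result in fibroblasts moved with the sex of the cells, and sex here marks different mice of a pool. In male fibroblasts the share of groups 9 to 13 was 52.3% (50.5 to 54.1) in 648 control cells and 32.1% (30.4 to 33.8) in 816 SM22-SmoM2 cells. In female fibroblasts it was 40.4% (37.4 to 43.4) in 222 control cells and 42.3% (35.0 to 49.8) in 48 SM22-SmoM2 cells. *Hoxc10* was at 67.6 and 29.9 CPM in male cells and at 59.9 and 66.9 CPM in female cells. *Hoxa10* was at 25.6 and 7.72 CPM in male cells and at 15.8 and 21.6 CPM in female cells. The female log2 ratios were 0.16 (-0.45 to 0.72) for *Hoxc10* and 0.45 (-0.72 to 1.47) for *Hoxa10*, against -1.17 (-1.38 to -0.97) and -1.73 (-2.13 to -1.35) in male cells. The lower level of both genes in SM22-SmoM2 fibroblasts was thus a measurement on male cells, and 48 female cells gave intervals that held 0. Within the SM22-SmoM2 library, male fibroblasts had less *Hoxc10* than female fibroblasts (log2 -1.16, -1.70 to -0.58). Within the control library the same difference was 0.17 (-0.08 to 0.44) for *Hoxc10* and 0.42 (-0.78 to 1.84) for *Hoxd9*. It was 0.69 (0.21 to 1.21) for *Hoxa10*, and *Hoxc8* was lower in male cells (49.97 against 109 CPM). *Hoxc11* was at 8.33 CPM (76 UMIs) in male and 0.77 CPM (2 UMIs) in female control cells. In SM22-SmoM2 fibroblasts *Hoxc11* had 3 UMIs in male and 0 in female cells (interval 0 to 7.96 CPM). The lower *Hoxc11* was thus also a measurement on male cells. In male muscle cells *Hoxc10* was at 78.5 and 68.4 CPM, and in female muscle cells at 29.1 (12 UMIs) and 85.7 CPM (10 UMIs). Genotype and the mice in each pool cannot be told apart in this design.

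**Figure D4:**
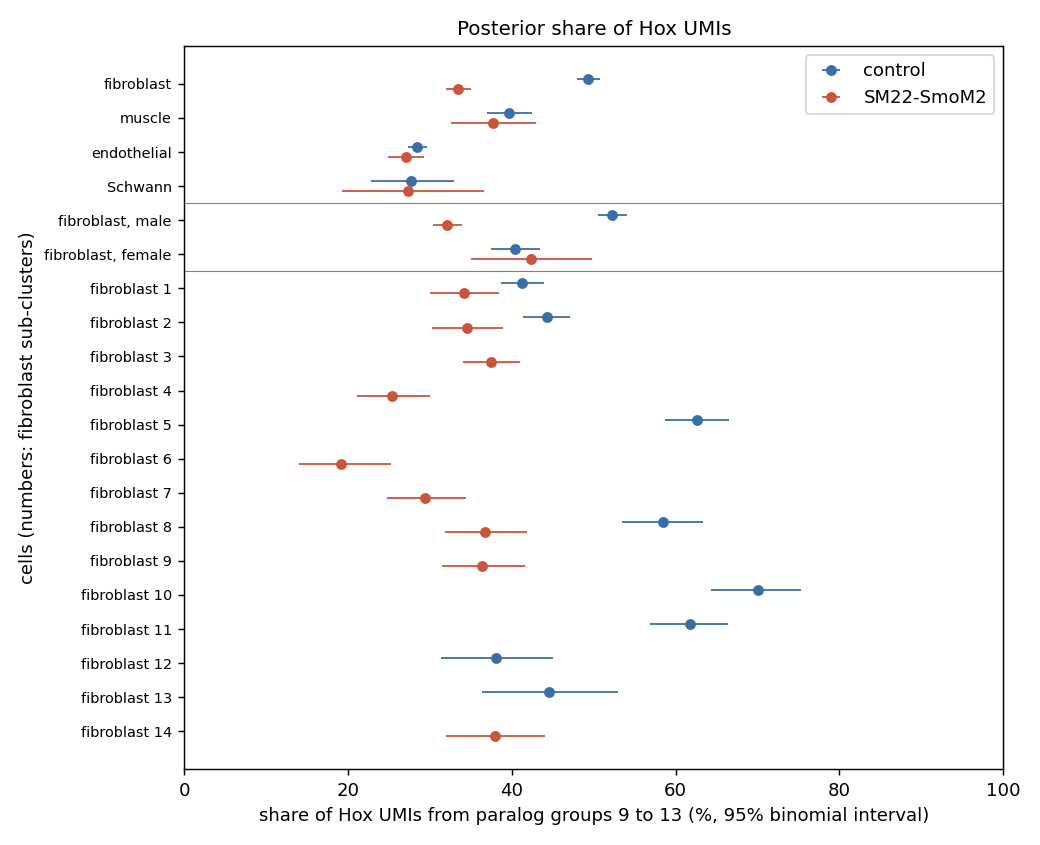
Share of Hox UMIs from paralog groups 9 to 13 (%) in 4 lineages, in fibroblasts by sex and in 14 fibroblast sub-clusters with at least 40 cells of a library, for control (blue) and SM22-SmoM2 (red) cells. Bars are 95% binomial intervals. The libraries lie apart in all fibroblasts and in male fibroblasts and overlap in muscle, endothelial, Schwann and female fibroblast cells.

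Fibroblasts were split into sub-clusters without using Hox genes or the Hh, dermal papilla and Wnt genes of the study. Only 3 sub-clusters held at least 50 cells of each library: number 1 (leading genes *Crabp1*, *Igfbp2* and *Mmp11*), number 2 (*Mmp3*, *Mmp13* and *Wisp2*) and number 8 (cycling cells with *Ube2c* and *Ccnb1*). *Hoxc10* was lower in the SM22-SmoM2 cells of each, at 62.7 and 34.5 CPM in number 1, 72.5 and 38.1 in number 2, and 109 and 49.97 in number 8. The log2 ratios were -0.86 (-1.34 to -0.42), -0.93 (-1.39 to -0.49) and -1.13 (-1.65 to -0.63). *Hoxa10* had ratios of -0.68 (-1.54 to 0.10), -1.40 (-2.31 to -0.59) and -0.99 (-2.02 to -0.03). *Hoxc8* was at -0.03, 0.15 and 0.36, with intervals that held 0 in all 3. The lower *Hoxc10* was thus also present among cells of the same sub-cluster, while the difference in *Hoxc8* was smaller than its counting error there. The share of groups 9 to 13 over all sub-clusters shown ran from 38.0% (number 12) to 70.0% (number 10) in control cells and from 19.1% (number 6) to 37.9% (number 14) in SM22-SmoM2 cells, and the intervals of numbers 12 and 14 overlapped. Male cells made up 60.3% and 96.5% of sexed cells in number 1, 57.9% and 91.5% in number 2, and 78.3% and 92.7% in number 8.

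Control fibroblasts held sub-clusters with Hox patterns of their own. Numbers 5 (174 control and 5 SM22-SmoM2 cells; *Nov*, *Eln*, *Sfrp2*) and 10 (110 and 0; *Nov*, *Dlk1*, *Cxcl2*) had low *Hoxc8*, at 21.7 and 10.5 CPM, against 94.8 in control cells of number 1. They had *Hoxc10* at 55.8 and 49.2 CPM, and groups 9 to 13 gave 62.6% and 70.0% of their Hox UMIs. *Hoxc11* was concentrated in them: of 86 control UMIs, 43 came from number 10 and 26 from number 5, at 26.4 and 9.55 CPM. Number 11 (80 and 0 cells; *Fbln7*, *Eln*, *Angptl1*) had the highest *Hoxc10*, 129 CPM (106 to 157), and the highest *Hoxa10*, 59.9 CPM (44.3 to 79.1), with 0 UMIs of *Hoxc11* (interval 0 to 4.51 CPM). *Hoxc10* in control cells of number 8, at 109 CPM, lay within the interval of number 11. Male cells made up 97.7%, 96.9% and 100% of the sexed cells of numbers 5, 10 and 11.

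*Pitx1*, a transcription factor that specifies the hindlimb, is on the list of positional factors but under the 50-UMI minimum, and was chosen after its values were seen. It had 43 UMIs in control fibroblasts and 0 in SM22-SmoM2 fibroblasts, 36 of them in male and 2 in female control cells and the rest in cells with no single sex call. Of the 43, 23 (53.5%) were in sub-cluster 5 and 13 (30.2%) in sub-cluster 10. *Tbx5*, a forelimb factor of the same list, had 6 UMIs in control and 1 in SM22-SmoM2 fibroblasts. Of its 6 control UMIs, 3 were in sub-cluster 5 and 2 in sub-cluster 10. *Tbx4*, another limb factor of the list, had 1 and 0 UMIs. Whether these cells have a hindlimb identity was not tested. Among 61 control fibroblasts with a *Hoxc11* UMI, 7 (11.5%, 4.74 to 22.2) had *Pitx1*, against 29 of 1037 (2.80%, 1.88 to 3.99) without one. *Hoxc10* was found in 60.7% (47.3 to 72.9) of the former and 43.1% of the latter, and *Hoxc8* in 19.7% (10.6 to 31.8) and 43.2% (40.2 to 46.3). Cells with *Hoxc11* thus carried *Pitx1* more often and *Hoxc8* less often than the others beyond the counting error of these shares, which were not thinned to equal depth. Of the 61 cells, 21 were in sub-cluster 5 and 26 in sub-cluster 10. *Pitx1* was found in 20 of 174 control cells of number 5 and 10 of 110 of number 10, and *Hoxc8* in 34 and 15. Whether the genes go together within a sub-cluster was not tested. With sub-cluster 10 left out, the log2 ratio of *Hoxc11* between the libraries was -3.83, and that of *Hoxc8* was 0.17.

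**Figure D5:**
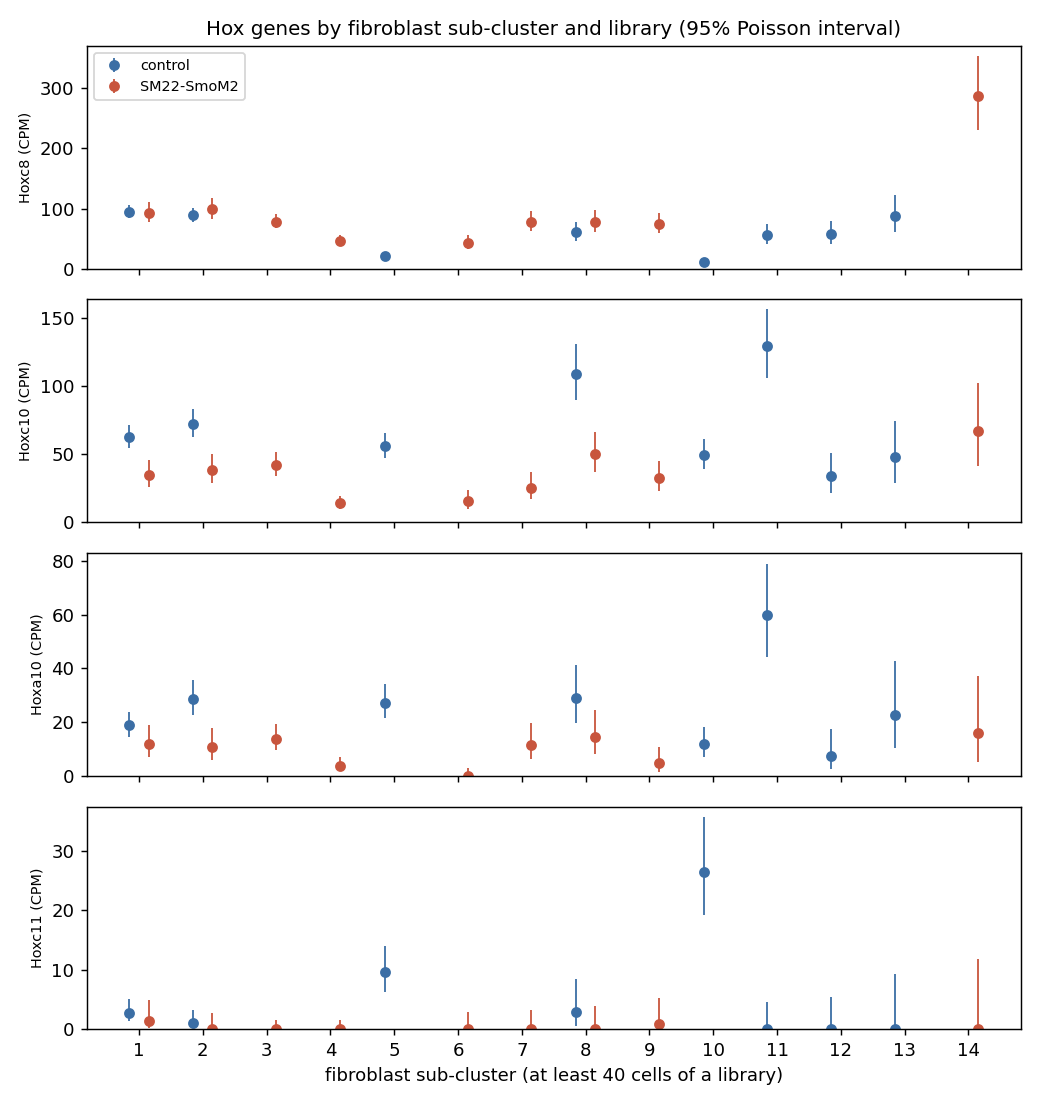
Levels (CPM) of *Hoxc8*, *Hoxc10*, *Hoxa10* and *Hoxc11* in fibroblast sub-clusters 1 to 14 for control (blue) and SM22-SmoM2 (red) cells, with 95% Poisson intervals, for sub-clusters with at least 40 cells of that library. *Hoxc10* is lower in SM22-SmoM2 cells of sub-clusters 1, 2 and 8, *Hoxc11* stands out in control sub-clusters 10 and 5, and *Hoxc8* reaches 287 CPM in sub-cluster 14.

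The SM22-SmoM2 library held most cells of some sub-clusters, from all cells of number 14 to 96 beside 33 control cells in number 7. Of its fibroblasts, 743 were in sub-clusters in which at least 3 of 5 Hh-response genes were raised (called Hh-active-like) and 46 were in sub-cluster 14, which also had all 12 of 12 dermal papilla-type genes raised (Hh-active II-like, median 4530.5 UMIs per cell). The first had a lower Hox level than the 310 other SM22-SmoM2 fibroblasts, at 249 (238 to 260) and 354 (335 to 373) CPM. The share of groups 9 to 13 was 31.8% in the first and 35.2% in the other SM22-SmoM2 cells, against 49.8% in the 1042 other control cells. *Hoxc10* was at 26.1, 39.8 and 67.4 CPM in the same order, and the log2 ratio of the other SM22-SmoM2 over the other control cells was -0.76 (-1.02 to -0.51). The 5 Hh-response genes summed to 322, 86.6 and 19.8 CPM in the same order. The other SM22-SmoM2 cells as a group thus also had more Hh-response RNA than the other control cells. Most of it, 249 of 335 UMIs, came from the 70 cells of sub-cluster 8. In SM22-SmoM2 cells of sub-clusters 1, 2 and 8 that sum was 24.1, 27.3 and 259 CPM, against 11.9, 34.3 and 8.70 CPM in their control cells. In the Hh-active-like, other SM22-SmoM2 and other control cells, *Hoxb2* was at 8.30, 21.2 and 16.3 CPM, and *Hoxd8* at 7.58, 17.6 and 11.6. In 56 control cells of the Hh-active-like sub-clusters, *Hoxc10* was at 21.8 CPM (12 UMIs, 11.2 to 38.0) and the share of groups 9 to 13 was 36.0% (29.1 to 43.3). Male cells made up 87.8% to 99.1% of the sexed SM22-SmoM2 cells in these sub-clusters.

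The Hh-active II-like cells had the highest Hox level of any fibroblast sub-cluster shown, 843 CPM (745 to 951). *Hoxc8* was at 287 CPM (231 to 353), *Hoxc9* at 179 (135 to 232), *Hoxc6* at 76.7 (49.1 to 114) and *Hoxc10* at 67.1 (41.5 to 103). The ratio to Hh-active-like cells was 2.20 (1.86 to 2.53) on the log2 scale for *Hoxc8*, 2.63 (2.18 to 3.05) for *Hoxc9* and 1.36 (0.64 to 2.01) for *Hoxc10*. It was 0.04 (-1.19 to 1.04) for *Hoxa7*, 0.21 (-2.11 to 1.81) for *Hoxb2* and -0.25 (-3.32 to 1.67) for *Hoxd8*. A higher level was thus not shown for every member. *Hoxd1* was at 31.9 CPM (10 UMIs, 15.3 to 58.7) in them and at 1.08 in Hh-active-like cells. The other SM22-SmoM2 fibroblasts held 15 *Hoxd1* UMIs, 13 of them in sub-cluster 1 (8.96 CPM). All Hox together gave 264 UMIs there. Sub-clusters 4 (*Areg*, *Mmp13*, *Hmox1*) and 6 (*Egfl6*, *Sox11*, *Hmox1*) had the lowest levels in the SM22-SmoM2 library, at 157 and 158 CPM, with *Hoxa10* at 3.62 CPM in the first and 0 UMIs in the second.

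Genes that work with or on the Hox genes were taken from lists. Of 9 cofactors of the TALE class, homeodomain proteins that bind DNA next to Hox proteins, 8 had at least 50 UMIs in fibroblasts and 0 were past 2-fold in either direction. *Meis1*, picked after its value was seen, was at 19.0 and 9.52 CPM, a log2 ratio of -0.996 (-1.32 to -0.68). Of 20 chromatin regulators of Hox loci, 18 had enough UMIs and 1 was higher, *Jarid2*, an accessory subunit of Polycomb repressive complex 2, at 14.2 and 29.4 CPM (1.05, 0.80 to 1.30). *Kdm6b*, an H3K27 demethylase, was at 198 and 364 CPM (0.88, 0.81 to 0.95).

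Of 19 retinoid genes, whose ligand sets Hox patterns in embryos, 13 had enough UMIs, with 2 higher and 1 lower. *Crabp2* was at 19.6 and 55.6 CPM (1.51, 1.31 to 1.71) and *Aldh1a3*, which makes retinoic acid, at 11.5 and 30.5 CPM (1.41, 1.14 to 1.68), while *Crabp1* was at 827 and 375 CPM (-1.14, -1.19 to -1.09). Of 21 other positional factors, 10 had enough UMIs and 3 were higher: *Alx4* with 1 and 52 UMIs, *En1* at 53.4 and 126 CPM (1.23, 1.11 to 1.36) and *Zic1* at 8.23 and 18.97 CPM (1.20, 0.88 to 1.54). *Alx4* is best given with its counting interval, 5.89 (3.34 to 11.22), and it passed the UMI minimum through the SM22-SmoM2 library alone. Of 8 non-coding rows of the Hox loci, 5 had enough UMIs and 0 were past 2-fold. *Hotairm1* was at 22.4 and 31.7 CPM, and *Hotair*, transcribed between *Hoxc11* and *Hoxc12* and under the minimum, was also picked after its value was seen. It had 22 UMIs in control and 7 in SM22-SmoM2 fibroblasts (-1.47, -2.94 to -0.19). These counts stand against 4.96% higher and 5.01% lower among all genes compared.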

How the data were processed

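Tomato+ dermal cells of 1 control and 1 SM22-SmoM2 library were measured by droplet-based 3′ single-cell RNA-seq. The authors aligned reads to mm10 and deposited raw UMI counts per gene and cell (Cell Ranger is named in the submitters' processing notes with no version). The deposited counts were used as they stood, and no normalization or doublet removal before deposit is stated. Cells with under 200 genes or over 10% mitochondrial UMIs were removed (22 and 10 of 2878 and 1802). Counts were scaled to 10000, log transformed and reduced to 20 principal components of 2000 variable genes, without Hox genes and 21 Hh, dermal papilla and Wnt genes, and grouped by k-means (K of 20 for all cells and 15 for fibroblasts, 50 starts) with numpy 2.4.6, scipy 1.17.1, scikit-learn 1.9.0 and scanpy 1.11.5. Lineages were named where at least 3 listed markers were raised 1.5-fold. A cluster with more than 6 of 12 Hh-active II markers raised and none of its named lineage's markers among its top 10 genes was placed with fibroblasts, and a sub-cluster led by markers of another lineage was left out (10 control and 1 SM22-SmoM2 cells). Both of these rules were set after the clusters were seen, so the names are rebuilt and can differ from the study's. Doublets were not removed, Scrublet called 5 and 11 barcodes, and leaving them out was an alternative.

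UMIs were summed by lineage and library and given as CPM with exact Poisson 95% intervals. Log2 ratios have exact conditional intervals, and shares have exact Clopper-Pearson intervals. Each condition has 1 library, so replicates give no spread and no test was made. The limit that a count of 0 allows is 3 counts. Members with at least 50 UMIs were compared, beside the share of all genes past 2-fold. The minimum was on the sum of the groups compared, so a gene can pass it through the group in which it is high. Promoters are RefSeq's (GRCm38.p6), and gene positions are GENCODE's on GRCm38. From the lists, genes past 2-fold and the most abundant genes were named, except for a gene of the cofactor list that is not reported here. The members and the gene lists were chosen with earlier results of these data known. The calculation of ratios and intervals was tested on simulated data.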

Additional observations from a re-analysis of the deposited data

How the results depend on the processing

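In the 15 of 17 alternative settings that gave single genes, the log2 ratios of the 18 Hox genes compared in fibroblasts gave 261 values, of which 236 stayed within the counting interval, 20 lay outside it with the direction kept or not called, and 5 reversed, and 9 had too few UMIs for a value. The settings differed in this. In each filtering and clustering setting all 18 genes stayed within the interval. In cells thinned to 2500 UMIs, 7 stayed, 9 lay outside and 1 reversed. With shared sub-clusters weighted equally, 11 stayed and 6 lay outside, and in female cells 4 stayed, 3 lay outside and 4 reversed. The 5 that reversed were *Hoxa9* (0.70), *Hoxa10* (0.45), *Hoxc8* (-0.078) and *Hoxc10* (0.16) in female cells and *Hoxb4* (0.081) in cells thinned to 2500 UMIs. The causes were not tested, and the female values rest on 48 SM22-SmoM2 cells. The number of genes past 2-fold, 4, was 1 in thinned cells, 0 in female cells, 1 with shared sub-clusters weighted equally, 5 with a minimum of 20 UMIs and 6 at a threshold of 1.5-fold. The share of groups 9 to 13 in control fibroblasts was 52.3% in male and 40.4% in female cells and 47.8% with shared sub-clusters weighted equally, and in SM22-SmoM2 fibroblasts it was 36.2% in thinned cells, 42.3% in female cells and 35.2% with shared sub-clusters. The log2 ratio of all Hox genes in fibroblasts was -0.11 in thinned cells, -0.12 as a mean of per-cell CPM, -0.054 in female cells, and, in 2 settings chosen after seeing the data, -0.27 without Hh-active II-like cells and -0.29 without sub-cluster 10. In endothelial cells it was -0.25 in male and -0.046 in female cells, and in Schwann cells, on few UMIs, 0.23 under Leiden clustering and 0.13 in female cells. Fibroblasts over endothelial cells in the control library stood at -1.08 in female cells. Fibroblasts over Schwann cells stood at 2.90 under Leiden clustering, 2.52 without barcodes of both sexes, 2.61 as a mean of per-cell CPM, 2.77 in male and 2.59 in female cells, beside 2.34. No paired analysis was possible because each condition has 1 library, so replicates could not be left out either. Depth limits the genes under 50 UMIs, and ratios given for them have wide intervals.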
